A study of Mus musculus with 15 samples.

Results

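Lipid-associated macrophage genes are a set of 10 genes, *Trem2*, *Tyrobp*, *Gpnmb*, *Cd9*, *Lpl*, *Fabp5*, *Spp1*, *Lgals3*, *Apoe*, and *Plin2*, that mark macrophages handling large amounts of lipid in obese fat, atherosclerotic plaque, and injured liver and brain. The members were listed by symbol and matched to the Ensembl identifiers of the count table, where all 10 were found among 19456 genes, and all 10 passed the filter on low counts. Their mRNA was measured by RNA sequencing in 15 libraries of cells sorted from adult male wild-type C57BL/6 mice. Of these, 4 libraries came from each of 3 macrophage subsets of the small intestine, which carried neither Tim-4 nor CD4 (Tim-4-CD4-), CD4 but not Tim-4 (Tim-4-CD4+), or both (Tim-4+CD4+), all sorted as CD64+ cells without Ly6C, and 3 came from Ly6Chi monocytes of the blood. The 3 subsets are given in this order throughout. Cells of 3 mice were pooled for a library, or of 4 mice for monocyte replicate 2, so the spread between libraries is the spread between pools and not between single animals. The intestine was digested with enzymes before sorting and the blood was not, so that a difference between a macrophage subset and the monocytes cannot be told apart from one of tissue and handling.

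In the lipid-associated state, Trem2 is a surface receptor for lipids and lipoproteins, and it signals through the adaptor Tyrobp, also called DAP12. Signaling through the pair is known to raise the genes by which macrophages take up, bind, and store lipid, among them Apoe, the protein of lipoprotein particles that is also a Trem2 ligand, Lpl, which frees fatty acids from triglyceride, Fabp5, which binds fatty acids in the cytosol, and Plin2, which coats lipid droplets. Gpnmb, a glycoprotein of lysosomes and the cell surface, the tetraspanin Cd9, the secreted protein Spp1 (osteopontin), and the galectin Lgals3 serve as markers of the state. Macrophages of the gut wall lie close to absorbed lipid, and Ly6Chi monocytes of the blood replace a large part of them.

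The 10 genes did not move as a block. *Gpnmb* and *Cd9* were higher, and *Trem2*, *Lpl*, and *Spp1* were lower, in both CD4+ subsets than in Tim-4-CD4- macrophages, whereas *Tyrobp*, *Apoe*, *Fabp5*, *Plin2*, and *Lgals3* did not pass the test between any pair of subsets. The largest rise was that of *Gpnmb*, 11-fold from the Tim-4-CD4- to the Tim-4+CD4+ subset. In the same comparison, the largest fall was that of *Spp1*, 33.6-fold (log2 fold change -5.07, or -5.76 without Tim-4+CD4+ replicate 1). *Spp1* was low, with 1 to 30 counts in a Tim-4+CD4+ library and 168 to 332 in a Tim-4-CD4- library. Levels are given as CPM, the counts of a gene per 1000000 counts of the scaled library, and a gene was called where its adjusted p was under 0.05 by a single edgeR quasi-likelihood fit to the 15 libraries with Benjamini-Hochberg adjustment over the 15802 genes tested, which applies to every adjusted p given here. In RNA from pooled cells, fewer expressing cells and less RNA per cell cannot be told apart.

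Depth ran from 39388763 to 151510641 counts per library. The sorting genes followed the labels, with a mean for *Cd4* of 22.9, 530.5, and 815.8 CPM in the 3 subsets, and for *Timd4*, which encodes Tim-4, of 355.5 CPM in the last subset against at most 1.70 CPM in the others. The 6 macrophage markers (*Csf1r*, *Adgre1*, *Fcgr1*, *Mertk*, *Cx3cr1*, and *C1qa*) summed to 10010 to 13930 CPM in macrophages and 3305 to 3495 CPM in monocytes. The plot of marker lists shows that 6 immediate early and stress genes summed to 13150 to 19260 CPM in the macrophage libraries and to 289.5 to 397.5 CPM in monocytes, and that the 4 B and plasma cell markers summed to 1050 to 2421 CPM in macrophages and at most 1.40 CPM in monocytes. The part of either in the differences from monocytes was not tested. Epithelial markers summed to 13.1 to 31.1 CPM, and T cell markers to 1.55 to 6.66 CPM in macrophages. The epithelial markers did not move together. *Fabp1* and *Fabp2* averaged 0.66 and 1.10 CPM in Tim-4-CD4- and 2.36 and 3.77 CPM in Tim-4+CD4+ macrophages. The means of *Vil1*, *Krt8*, *Krt20*, and *Lgals4* were also higher in the latter. Those of *Epcam* and *Cdh1* were lower, at 1.53 and 0.69 against 4.26 and 3.68 CPM. Among replicates, Tim-4+CD4+ replicate 1 stood furthest from the other 3 of its subset, with a chi-square of 212 to 272 per gene, against 22.1 to 165 for other pairs within a population (a measure that grows with depth). Fold changes of members that rest on it are also given without it. Values of the other listed genes, ratios, and correlations are given only with it, so their dependence on this library is not shown.

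**Figure D1:**
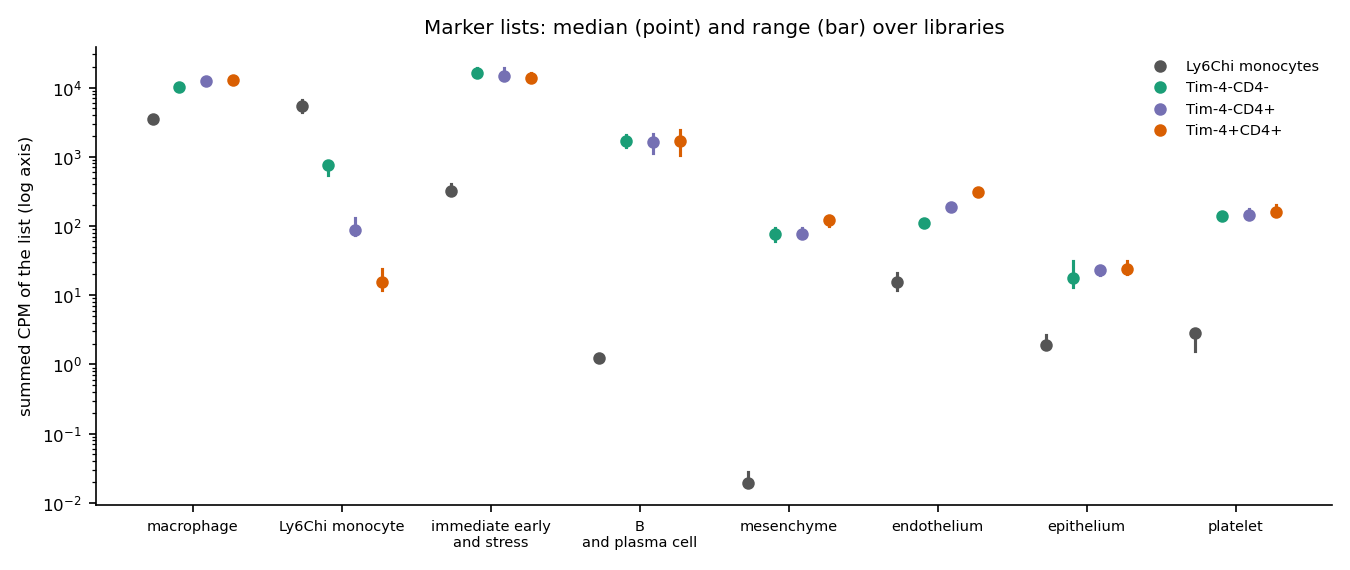
Summed CPM of 8 marker lists (log axis) in the 4 populations, with the median over libraries as a point and the range as a bar. The Ly6Chi monocyte list falls from 4368 to 6600 CPM in monocytes to 12.02 to 23.9 CPM in Tim-4+CD4+ macrophages, whereas the macrophage list is at 10010 CPM or more in each subset.

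*Trem2* and *Spp1* fell and *Gpnmb* rose from the Tim-4-CD4- subset to those with CD4. The bases before their annotated transcription starts are printed here. RefSeq windows (GRCm38.p6) of 250 bases before the start were at hand for 7 of the 10 members, with 10 windows in all because *Spp1* and *Apoe* have several starts. Each sequence runs 5′ to 3′ on the strand of the gene, and capitals mark any match, on either strand, to 5 short motifs. The motifs were TGANTCA (an AP-1-like pattern with any base at N), CACGTG (an E-box), and GAGGAA (the core of PU.1 sites). The others were AGGTCA (a nuclear receptor half-site) and TATAAA (the TATA box).
Trem2 (chr17:48346151-48346400, plus strand): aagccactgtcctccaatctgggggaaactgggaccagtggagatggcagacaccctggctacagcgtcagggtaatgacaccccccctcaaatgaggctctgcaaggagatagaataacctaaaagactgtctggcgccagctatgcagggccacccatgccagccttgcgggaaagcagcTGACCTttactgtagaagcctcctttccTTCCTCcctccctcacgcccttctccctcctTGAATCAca
Spp1 (chr5:104434861-104435110, plus strand): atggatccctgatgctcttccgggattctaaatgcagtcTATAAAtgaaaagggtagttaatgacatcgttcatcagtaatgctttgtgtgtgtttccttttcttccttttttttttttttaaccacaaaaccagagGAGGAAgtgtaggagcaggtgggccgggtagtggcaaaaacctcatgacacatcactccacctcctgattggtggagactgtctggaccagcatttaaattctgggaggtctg
Gpnmb (chr6:49036268-49036517, plus strand): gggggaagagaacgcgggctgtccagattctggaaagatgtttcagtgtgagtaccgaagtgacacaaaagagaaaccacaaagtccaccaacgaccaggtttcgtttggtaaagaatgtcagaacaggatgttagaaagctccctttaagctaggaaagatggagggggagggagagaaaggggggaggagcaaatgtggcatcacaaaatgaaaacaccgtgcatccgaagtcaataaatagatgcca
The window of *Trem2* held a match to the AP-1-like pattern, TGAATCA, that begins 9 bases before the start. It also held a PU.1 core 40 bases before the start and a nuclear receptor half-site 68 bases before it. In the printed window of *Spp1*, a PU.1 core lay 113 bases and a TATA box 211 bases before the start. The other window of *Spp1* (chr5:104435942-104436191) is not printed and held none of the 5 motifs. None of the 5 motifs was in the *Gpnmb* window. Over all 32851 windows of the same length, 6.75% held the AP-1-like pattern, 6.02% the E-box, and 23.3% the PU.1 core. The half-site was in 14% and the TATA box in 12.4%, so each of these short matches is common. A match describes the letters only, and no binding was measured.

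*Trem2* (ENSMUSG00000023992.14, GRCm38 chr17:48346401-48354147, plus strand), the receptor of the set, was highest in monocytes, lower in Tim-4-CD4- macrophages, and lowest in the CD4+ subsets. It read 39.9, 48.6, and 37.1 CPM in the 3 monocyte libraries and 30.9, 20.3, 23.3, and 25.1 CPM in Tim-4-CD4- macrophages. The Tim-4-CD4+ libraries held 11.4, 10.7, 12.4, and 13.4 CPM, and those of Tim-4+CD4+ macrophages 11.1, 7.82, 6.98, and 5.04 CPM. Every Tim-4-CD4- library lay below every monocyte library and above every CD4+ library, whereas the CD4+ subsets overlapped through Tim-4+CD4+ replicate 1. The level was 1.68-fold lower in Tim-4-CD4- macrophages than in monocytes (log2 fold change -0.75 ± 0.20 SE, adjusted p = 0.00317), and 3.48-fold and 5.38-fold lower in the subsets with CD4. Among subsets, it was 2.07-fold lower in Tim-4-CD4+ (-1.05 ± 0.19, adjusted p = 0.00144) and 3.21-fold lower in Tim-4+CD4+ (-1.68 ± 0.19, adjusted p = 6.44e-06) than in Tim-4-CD4- macrophages. The last step, between the subsets with CD4, had a log2 fold change of -0.63 ± 0.19 and did not pass (adjusted p = 0.0903). Without Tim-4+CD4+ replicate 1 that step was -0.85 and passed (adjusted p = 0.00639), and it also passed with DESeq2 (adjusted p = 0.0301).

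*Tyrobp* (ENSMUSG00000030579.10, chr7:30413760-30417585, plus strand), which carries the signal of Trem2 and of other receptors without a signaling tail of their own, did not follow its partner. Its levels were 1173, 923.2, and 1012 CPM in monocytes, and 595.3, 532.6, 555, and 568.2 CPM in Tim-4-CD4- macrophages. The Tim-4-CD4+ libraries read 564.5, 571.3, 579.6, and 561.3 CPM, and Tim-4+CD4+ libraries 840, 559.3, 558.9, and 550.3 CPM. All macrophage libraries lay below all monocyte libraries, and the subsets overlapped, with Tim-4+CD4+ replicate 1 above the other 11 macrophage libraries. *Tyrobp* was 1.84-fold, 1.82-fold, and 1.65-fold lower than in monocytes in the 3 subsets (adjusted p = 1.68e-05, 1.79e-05, and 0.000104). Between subsets the log2 fold changes were 0.016 ± 0.12 for Tim-4-CD4+ over Tim-4-CD4-, 0.16 ± 0.12 for Tim-4+CD4+ over Tim-4-CD4-, and 0.14 ± 0.12 between the subsets with CD4 (Tim-4+CD4+ over Tim-4-CD4+), and none passed (adjusted p = 0.964, 0.394, and 0.626). The 2 differences of Tim-4+CD4+ macrophages turned to -0.014 and -0.032 without replicate 1. Per length of transcript, the level of *Tyrobp* was 36.7 to 56.7 times that of *Trem2* in monocytes and 37.1 to 50.7 times in Tim-4-CD4- macrophages. The same ratio was 80.9 to 103 in Tim-4-CD4+ and 138 to 211 in Tim-4+CD4+ macrophages, and the ranges of the 3 subsets did not overlap. Between the CD4+ subsets, however, neither gene passed by itself (adjusted p = 0.0903 for *Trem2* and 0.626 for *Tyrobp*). The ratio of 146 in Tim-4+CD4+ replicate 1 also came with its high *Tyrobp* of 840 CPM. The ratio itself was not tested.

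Other genes of the receptor's neighborhood were read from a list of 11, all tested: the relatives *Trem1*, *Trem3*, *Treml2*, and *Treml4*, the adaptor *Hcst*, the signaling genes *Syk*, *Plcg2*, *Inpp5d*, and *Card9*, and *Adam10* and *Adam17*, whose proteases shed Trem2 from the surface. From the Tim-4-CD4- to the Tim-4+CD4+ subset, 3 of the 11 were called lower and none higher, beside 11.9% and 11.3% of all genes tested, and the median log2 fold change of the list was -0.15, against 0 over all genes. The 3 were all relatives of *Trem2*. *Trem1*, which amplifies inflammatory signals through the same adaptor, fell from a mean of 11.5 to 3.21 CPM (log2 fold change -1.83 ± 0.32 SE, adjusted p = 0.000526). *Treml2* fell from 2.03 to 0.543 CPM (adjusted p = 0.000235) and *Trem3* from 1.86 to 0.87 CPM (adjusted p = 0.0356). None of the signaling genes or proteases passed in this comparison. Against monocytes, 7 of the 11 were lower in each subset, and 1, 1, and 0 were higher in the 3 subsets, where 28.1%, 30.7%, and 31.3% of all genes were called lower and 37.3%, 39.1%, and 39.5% higher.

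**Figure D2:**
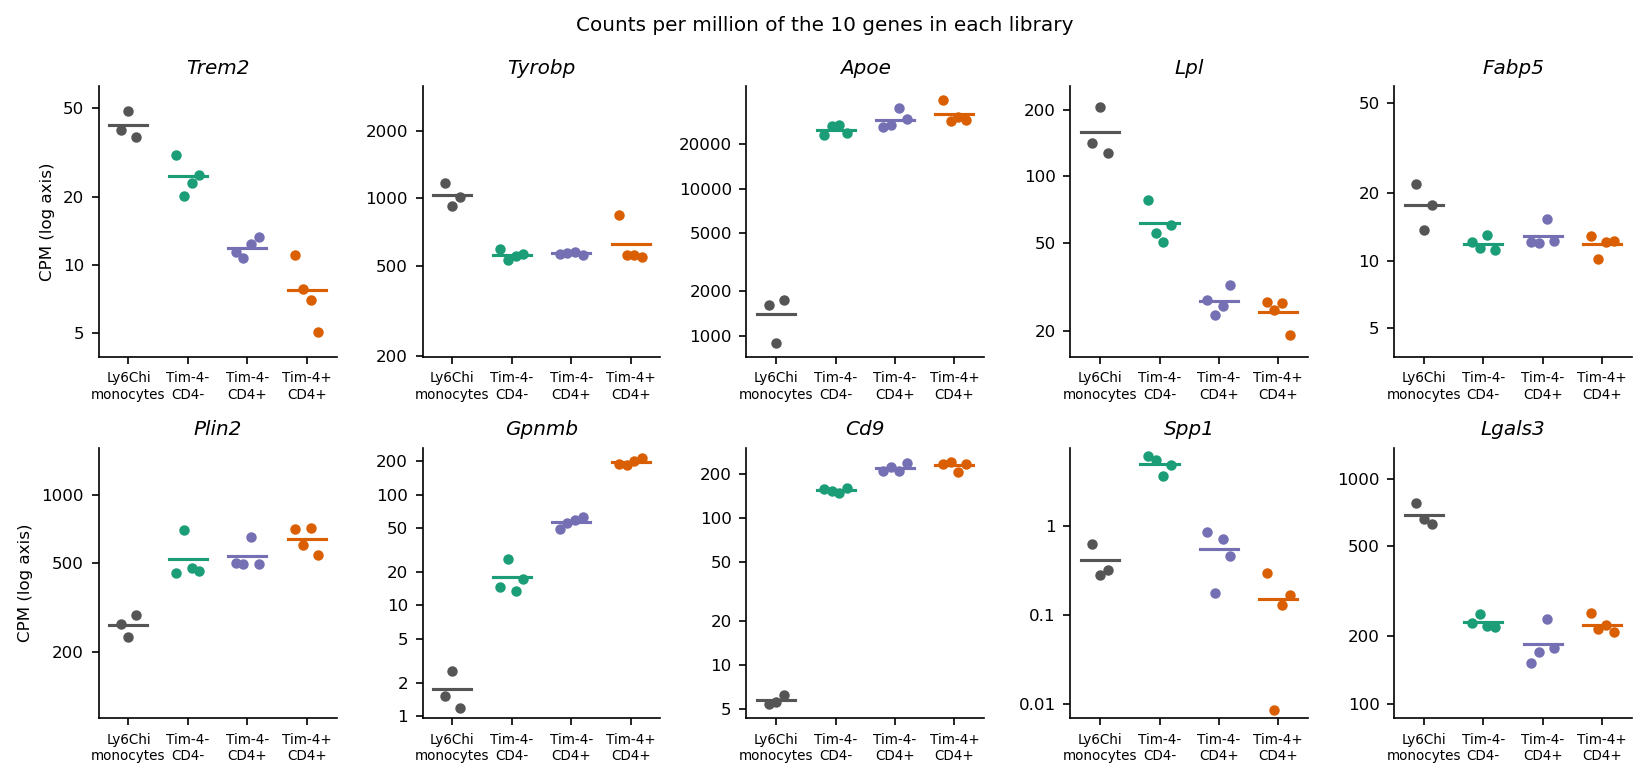
CPM (log axis, with its own range in each panel) of the 10 genes in the 15 libraries, with a point for each library in the order of replicate number and a bar at the mean of each population. *Gpnmb* steps up from left to right through the 3 subsets, *Trem2* and *Lpl* are lower in both CD4+ subsets than in Tim-4-CD4- macrophages, and *Spp1* is highest in Tim-4-CD4- macrophages, at 3.62 to 6.06 CPM.

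*Apoe* (ENSMUSG00000002985.16, chr7:19696109-19699188, minus strand), whose protein carries cholesterol out of macrophages, was the most abundant member per length of transcript in each macrophage subset. Monocytes held 1609, 897.9, and 1735 CPM, and Tim-4-CD4- macrophages 22990, 26800, 26960, and 23890 CPM. In Tim-4-CD4+ macrophages, it read 26110, 26850, 35230, and 29510 CPM, and in Tim-4+CD4+ macrophages 39860, 28620, 30900, and 29170 CPM. The monocyte libraries lay far below all others, and the Tim-4+CD4+ libraries lay above those of Tim-4-CD4- macrophages, with Tim-4-CD4+ libraries overlapping both. It was 17.8-fold, 20.8-fold, and 22.7-fold higher than in monocytes in the 3 subsets (log2 fold changes 4.15 ± 0.22, 4.38 ± 0.22, and 4.51 ± 0.22, adjusted p = 4.02e-11, 1.93e-11, and 1.32e-11). The difference between these outer subsets was 0.35 ± 0.17 and did not pass (adjusted p = 0.148). With only those 2 populations fitted, it was 0.37 and passed (adjusted p = 0.0388), as it did without monocyte replicate 2 (adjusted p = 0.0393), and it was 0.24 without Tim-4+CD4+ replicate 1 (adjusted p = 0.356). *Apoe* alone took 2.28 to 3.93% of the counts of a macrophage library and 0.098 to 0.192% of those of a monocyte library. By mean level per length of transcript it ranked first of all genes in Tim-4+CD4+ macrophages, second in both other subsets, and 29th in monocytes.

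Of 7 genes listed around *Apoe* on chromosome 7, *Apoc1*, *Apoc2*, *Apoc4*, *Tomm40*, *Nectin2*, *Clptm1*, and *Relb*, 6 were tested. *Nectin2*, an adhesion gene, was lower in Tim-4+CD4+ macrophages than in the Tim-4-CD4- subset, at 6.70 against 12.6 CPM (log2 fold change -0.91 ± 0.19 SE, adjusted p = 0.00171). *Apoc1*, an apolipoprotein gene, was called higher there, at a mean of 1.10 against 0.203 CPM (2.42 ± 0.48, adjusted p = 0.00145), yet it was highest in monocytes, at 2.99 CPM. The other 4 did not pass, so that 1 of 6 was called in each direction, beside 11.3% of all genes higher and 11.9% lower, and the median of the list was -0.15.

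Genes of lipoprotein uptake and cholesterol efflux, which act before and after Apoe, were read from a list of 15, all of them tested. In Tim-4+CD4+ macrophages, 4 were called higher and 2 lower than in the Tim-4-CD4- subset, beside 11.3% and 11.9% of all genes, so that the share called lower was near that of all genes. The median log2 fold change was 0.18, against 0 over all genes. The scavenger receptor gene *Msr1* was 1.75-fold higher, at 531.9 against 303.4 CPM (0.81 ± 0.16 SE, adjusted p = 0.00142), and *Scarb1*, *Abcg1*, and *Nr1h3*, which encodes the sterol sensor LXRα, also rose, by 0.50, 0.33, and 0.55 on the log2 scale. *Cd36*, the scavenger receptor and fatty acid transporter gene, fell by 0.67 on that scale (adjusted p = 0.000694), from 154.1 to 96.9 CPM. *Pltp*, which encodes the phospholipid transfer protein, fell by 0.76 (adjusted p = 0.000135), from 652.4 to 386 CPM.

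*Lpl* (ENSMUSG00000015568.16, chr8:68880491-68907448, plus strand), the lipase gene, was likewise highest in monocytes and lowest in the CD4+ subsets. Monocytes read 140.9, 204.3, and 127.5 CPM, and Tim-4-CD4- macrophages 78.3, 55.6, 50.7, and 60.4 CPM. The Tim-4-CD4+ libraries held 27.7, 23.6, 25.9, and 32.1 CPM, and the Tim-4+CD4+ libraries 27.1, 24.9, 26.7, and 19.1 CPM. Monocytes, Tim-4-CD4- macrophages, and the CD4+ macrophages formed ranges that did not overlap, whereas the CD4+ subsets overlapped with each other. *Lpl* was 2.57-fold lower in Tim-4-CD4- macrophages than in monocytes (log2 fold change -1.36 ± 0.18, adjusted p = 3.48e-06). Compared with Tim-4-CD4- macrophages, it was 2.24-fold lower in Tim-4-CD4+ (-1.16 ± 0.17, adjusted p = 0.00022) and 2.51-fold lower in Tim-4+CD4+ macrophages (-1.33 ± 0.17, adjusted p = 1.96e-05), and the CD4+ subsets differed by -0.16 ± 0.16 (adjusted p = 0.682). The markers *Plin1* and *Cidec* of fat cells, which are rich in *Lpl*, summed to at most 0.282 CPM in any library.

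Of 11 listed genes that control lipases or their activity, 8 were tested, and 3 were called higher and none lower in Tim-4+CD4+ macrophages than in the Tim-4-CD4- subset, beside 11.3% and 11.9% of all genes, with a median log2 fold change of 1.63 against 0. *Angptl4*, which encodes an inhibitor that unfolds the lipase, rose 4.19-fold, from 2.59 to 10.9 CPM (2.07 ± 0.24 SE, adjusted p = 6.53e-06). The other 2 were *Apoc1*, described above, and *Apoc3*, which averaged 0.246 CPM over the macrophages. The epithelial markers *Fabp1* and *Fabp2* also had higher means in Tim-4+CD4+ macrophages, and the part of epithelial transcripts in the *Apoc3* call was not tested.

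*Fabp5* (ENSMUSG00000027533.10, chr3:10012548-10016607, plus strand) varied little. It was at 21.9, 13.6, and 17.7 CPM in monocytes and at 12.1, 11.4, 12.9, and 11.1 CPM in Tim-4-CD4- macrophages. Tim-4-CD4+ libraries held 12.1, 12.04, 15.3, and 12.3 CPM and Tim-4+CD4+ libraries 12.8, 10.2, 12.1, and 12.3 CPM. The monocyte libraries were above those of both outer subsets, and monocyte replicate 2 lay within the range of Tim-4-CD4+ macrophages. The gene was 1.49-fold, 1.37-fold, and 1.5-fold lower in the 3 subsets than in monocytes (adjusted p = 0.00208, 0.00937, and 0.00157). The call in Tim-4-CD4+ macrophages was lost without monocyte replicate 1 (adjusted p = 0.152). Between subsets, in the same order as for *Tyrobp*, the log2 fold changes were 0.12, -0.008, and -0.13, each with an SE of 0.13, and none passed (adjusted p = 0.67, 0.977, and 0.69).

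*Plin2* (ENSMUSG00000028494.12, chr4:86648386-86670060, minus strand), the droplet coat gene, was higher in macrophages than in monocytes. Monocytes held 266.5, 232.8, and 292.1 CPM, and Tim-4-CD4- macrophages 452, 697, 475.9, and 461.8 CPM. It read 500.1, 495.6, 653.6, and 493.9 CPM in Tim-4-CD4+ and 709.2, 601.4, 711.9, and 542.2 CPM in Tim-4+CD4+ macrophages. Each macrophage library was above each monocyte library, and the 3 subsets overlapped, with 1 high library among the Tim-4-CD4- and 1 among the Tim-4-CD4+ libraries. The rise over monocytes was 1.98-fold, 2.03-fold, and 2.43-fold in the 3 subsets (log2 fold changes 0.98 ± 0.16, 1.02 ± 0.16, and 1.28 ± 0.16, adjusted p = 5e-05, 2.95e-05, and 2.51e-06). From the Tim-4-CD4- to the Tim-4+CD4+ subset the log2 fold change was 0.30 ± 0.15 (adjusted p = 0.16), and it was 0.48 and passed without Tim-4-CD4- replicate 2, the high library (adjusted p = 0.0148).

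Of 16 further genes of lipid droplets and fatty acid binding, 12 were tested, and 2 were called higher and 3 lower in Tim-4+CD4+ macrophages than in the Tim-4-CD4- subset, where 11.3% and 11.9% of all genes were called. *Dgat1* and *Dgat2*, which encode the enzymes of the last step of triglyceride synthesis, rose from 63.7 to 94.3 CPM (log2 fold change 0.57 ± 0.15 SE, adjusted p = 0.012) and from 30.01 to 43.9 CPM (0.55 ± 0.14, adjusted p = 0.00892). *Acsl1*, which activates fatty acids for use, fell from 66.8 to 43.2 CPM (-0.63 ± 0.12, adjusted p = 0.000771). *Abhd5*, the activator of droplet lipolysis, and *Fabp3* were also lower, the latter at a mean of 0.0197 CPM over the macrophages. The median log2 fold change of the list was 0, as over all genes.

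*Gpnmb* (ENSMUSG00000029816.10, chr6:49036546-49070929, plus strand) rose at each step. The monocyte libraries held 1.51, 2.56, and 1.19 CPM, and those of Tim-4-CD4- macrophages 14.7, 26.1, 13.5, and 17.4 CPM. Tim-4-CD4+ macrophages read 49.4, 55.6, 59.4, and 62.8 CPM, and Tim-4+CD4+ macrophages 187.8, 184.5, 201.5, and 213.5 CPM. No populations overlapped, and *Gpnmb* was the sole member with a call at each of the 3 steps of its order. Compared with monocytes, it was 10.1-fold higher in Tim-4-CD4- (log2 fold change 3.33 ± 0.25, adjusted p = 4.82e-09), 31.9-fold higher in Tim-4-CD4+ (4.99 ± 0.27, adjusted p = 4.81e-11), and 110-fold higher in Tim-4+CD4+ macrophages (6.79 ± 0.29, adjusted p = 2.15e-12). Between subsets, it was 3.16-fold higher in Tim-4-CD4+ macrophages than in the Tim-4-CD4- subset (1.66 ± 0.20, adjusted p = 4.39e-05), and 3.46-fold higher in Tim-4+CD4+ macrophages than in the Tim-4-CD4+ subset (1.79 ± 0.20, adjusted p = 3.03e-05). The difference between the outer subsets was 3.45 ± 0.21 (adjusted p = 6.97e-09). All of these calls stayed in each of 24 alternative fits, among them those without Tim-4+CD4+ replicate 1. Per length of transcript, *Gpnmb* stood at 0.14 to 0.379 times the level of *Trem2* in Tim-4-CD4-, 1.27 to 1.52 times in Tim-4-CD4+, and 4.98 to 12.4 times in Tim-4+CD4+ macrophages, so that the order of the 2 genes turned over between subsets.

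The transcription factors that control lysosomal and lipid genes were read from a list of 10, *Mitf*, *Tfeb*, *Tfe3*, *Tfec*, *Pparg*, *Ppard*, *Rxra*, *Bhlhe40*, *Bhlhe41*, and *Srebf1*. In Tim-4+CD4+ macrophages against the Tim-4-CD4- subset, 2 of the 10 were called higher and none lower, beside 11.3% and 11.9% of all genes, and the median log2 fold change was 0.06 against 0. *Rxra*, the shared partner of lipid-sensing nuclear receptors, rose 2.07-fold, from 83.9 to 174.1 CPM (log2 fold change 1.05 ± 0.10 SE, adjusted p = 7.49e-07). *Tfec*, a relative of *Mitf* found mainly in myeloid cells, rose 1.83-fold, from 16.3 to 29.8 CPM (adjusted p = 0.000185). The other 8, *Mitf*, *Tfeb*, and *Pparg* among them, did not pass.

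*Cd9* (ENSMUSG00000030342.8, chr6:125460266-125494791, minus strand), a membrane organizer, separated macrophages from monocytes and CD4+ from CD4- macrophages. Monocytes read 5.36, 5.53, and 6.21 CPM, and Tim-4-CD4- macrophages 157.5, 153.3, 148.5, and 161.9 CPM. In the CD4+ subsets it was at 212, 225.6, 210.2, and 236.9 CPM without Tim-4 and at 235.1, 243.6, 205.7, and 234.8 CPM with it. Every CD4+ library exceeded every Tim-4-CD4- library, and the CD4+ subsets overlapped. *Cd9* was 27.3-fold, 38.9-fold, and 40.4-fold higher than in monocytes in the 3 subsets (log2 fold changes 4.77, 5.28, and 5.34, each with an SE of 0.11). Over Tim-4-CD4- macrophages it rose 1.42-fold in Tim-4-CD4+ (0.51 ± 0.08, adjusted p = 0.000433) and 1.48-fold in Tim-4+CD4+ macrophages (0.56 ± 0.08, adjusted p = 5.35e-05). The CD4+ subsets differed by 0.055 ± 0.08 (adjusted p = 0.784). *Cd9* overlaps the antisense genes *Gm26728* and *Gm28809*, and since the strand setting of the counting is not stated, reads of the overlap may be uncertain.

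Among 8 other tetraspanins (*Cd37*, *Cd53*, *Cd63*, *Cd81*, *Cd82*, *Cd151*, *Tspan4*, and *Tspan33*), 2 were called higher and none lower in Tim-4+CD4+ macrophages than in the Tim-4-CD4- subset, against 11.3% and 11.9% of all genes, with a median of 0.16 on the log2 scale against 0. *Cd63*, a tetraspanin of late endosomes and lysosomes, rose 3.54-fold, from 90.9 to 322.1 CPM (log2 fold change 1.83 ± 0.19 SE, adjusted p = 1.94e-06). *Cd81*, a close relative of *Cd9*, was higher by 0.36 ± 0.12, at 1297 against 1009 CPM, although the libraries of these subsets overlapped (adjusted p = 0.0349).

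*Spp1* (ENSMUSG00000029304.14, chr5:104435118-104441050, plus strand) was low throughout and highest in Tim-4-CD4- macrophages. It read 0.631, 0.282, and 0.316 CPM in monocytes, from 89, 29, and 17 counts, and 6.06, 5.46, 3.62, and 4.81 CPM in Tim-4-CD4- macrophages, from 168 to 332 counts. Tim-4-CD4+ macrophages held 0.843, 0.177, 0.716, and 0.459 CPM, and Tim-4+CD4+ macrophages 0.292, 0.00861, 0.129, and 0.166 CPM, the latter from 30, 1, 8, and 10 counts. The Tim-4-CD4- libraries stood above all other libraries, which overlapped among themselves. *Spp1* was 11.9-fold higher in Tim-4-CD4- macrophages than in monocytes (log2 fold change 3.58 ± 0.64, adjusted p = 0.000124). It was 9.01-fold lower in Tim-4-CD4+ (-3.17 ± 0.56, adjusted p = 0.0014) and 33.6-fold lower in Tim-4+CD4+ (-5.07 ± 0.63, adjusted p = 1.74e-05) than in Tim-4-CD4- macrophages. Without Tim-4+CD4+ replicate 1, which held the most *Spp1* counts of its subset, the latter difference was -5.76 (adjusted p = 1.63e-05). The call of a lower level in Tim-4+CD4+ macrophages than in monocytes (-1.49 ± 0.62, adjusted p = 0.0423) was lost in 15 of 24 alternative fits and was -2.17 without that replicate (adjusted p = 0.00906), and the difference between Tim-4-CD4+ macrophages and monocytes did not pass (0.41 ± 0.59, adjusted p = 0.549). Between the CD4+ subsets the log2 fold change was -1.90 ± 0.59 (adjusted p = 0.109), and it passed with DESeq2 (adjusted p = 0.00897) and without Tim-4+CD4+ replicate 1 (-2.60, adjusted p = 0.0425). The gene overlaps *Gm42793* on the same strand, and reads in the overlap may be uncertain.

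Receptors for osteopontin were read from *Cd44* and the integrin genes *Itgav*, *Itgb1*, *Itgb3*, *Itgb5*, *Itga4*, and *Itga9*. In Tim-4+CD4+ macrophages against the Tim-4-CD4- subset, 3 of these 7 were called lower and none higher, where 11.9% of all genes were lower and 11.3% higher. *Cd44* fell from 536.3 to 276.1 CPM (log2 fold change -0.96 ± 0.16 SE, adjusted p = 0.000324), *Itga4* from 359 to 213.7 CPM (adjusted p = 0.0151), and *Itgb1* from 434.6 to 331.9 CPM (adjusted p = 0.0046). The median of the list was 0.09 on the log2 scale, against 0 over all genes.

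*Lgals3* (ENSMUSG00000050335.16, chr14:47367751-47386160, plus strand) encodes a sugar-binding protein that gathers on damaged lysosomes. It was highest in monocytes, at 782.5, 662, and 630.9 CPM, and read 228.6, 251.5, 222.3, and 219.6 CPM in Tim-4-CD4- macrophages. The Tim-4-CD4+ libraries held 151.5, 169.1, 237.7, and 177.4 CPM and the Tim-4+CD4+ libraries 252, 215.5, 223.1, and 208.2 CPM. All macrophage libraries were far below all monocyte libraries, and Tim-4-CD4+ macrophages lay below the other subsets except for their replicate 3, while the outer subsets overlapped. *Lgals3* was 3.00-fold, 3.76-fold, and 3.08-fold lower in the 3 subsets than in monocytes (adjusted p = 1.6e-08, 1.33e-09, and 9.4e-09). The log2 fold change from the Tim-4-CD4- to the Tim-4-CD4+ subset was -0.33 ± 0.12 (adjusted p = 0.11) and that from the Tim-4-CD4+ to the Tim-4+CD4+ subset 0.29 ± 0.12 (adjusted p = 0.27). Without Tim-4-CD4+ replicate 3 these were -0.48 and 0.45, and both passed (adjusted p = 0.00729 and 0.0248). Of 7 other listed genes, which were galectin genes and *Lgals3bp*, for a protein that binds galectin-3, 6 were tested. Among those tested, 1 was called lower and 1 higher, beside 11.9% and 11.3% of all genes, with a median of 0.17 against 0. *Lgals1* fell from 53.8 to 14.3 CPM between Tim-4-CD4- macrophages and the Tim-4+CD4+ subset (-1.92 ± 0.13, adjusted p = 2.93e-08) and *Lgals8* rose from 105.6 to 153.4 CPM (0.54 ± 0.09, adjusted p = 0.000205).

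Counted over the set, the differences from monocytes went in both directions. In Tim-4-CD4- macrophages, 5 of 10 members were higher and 5 lower, where 37.3% and 28.1% of all genes tested were called higher and lower. For Tim-4-CD4+ macrophages, 4 were higher and 5 lower, beside 39.1% and 30.7% of all genes. Tim-4+CD4+ macrophages had 4 higher and 6 lower, beside 39.5% and 31.3%. These 3 comparisons share the monocyte libraries. *Apoe*, *Cd9*, *Gpnmb*, and *Plin2* were higher and *Trem2*, *Tyrobp*, *Lpl*, *Fabp5*, and *Lgals3* lower in each of them. With about 2 in 3 genes called in each, a call against monocytes says little about the set.

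Calls between subsets were rarer. From the Tim-4-CD4- to the Tim-4-CD4+ subset, 2 members rose and 3 fell, beside 4.52% and 5.53% of all genes. From the Tim-4-CD4- to the Tim-4+CD4+ subset, again 2 rose and 3 fell, beside 11.3% and 11.9% of all genes. From the Tim-4-CD4+ to the Tim-4+CD4+ subset, 1 member, *Gpnmb*, rose and none fell, beside 2.07% and 1.34%. Without Tim-4+CD4+ replicate 1, this last comparison had 3 members called and the one before it 5. The median log2 fold change of the 10 members was 0.027, 0.074, and 0.091 in these comparisons, near that of all genes tested (-0.003, -0.005, and -0.002), since rises and falls offset each other. The plot of log2 fold changes sets these out for each member.

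**Figure D3:**
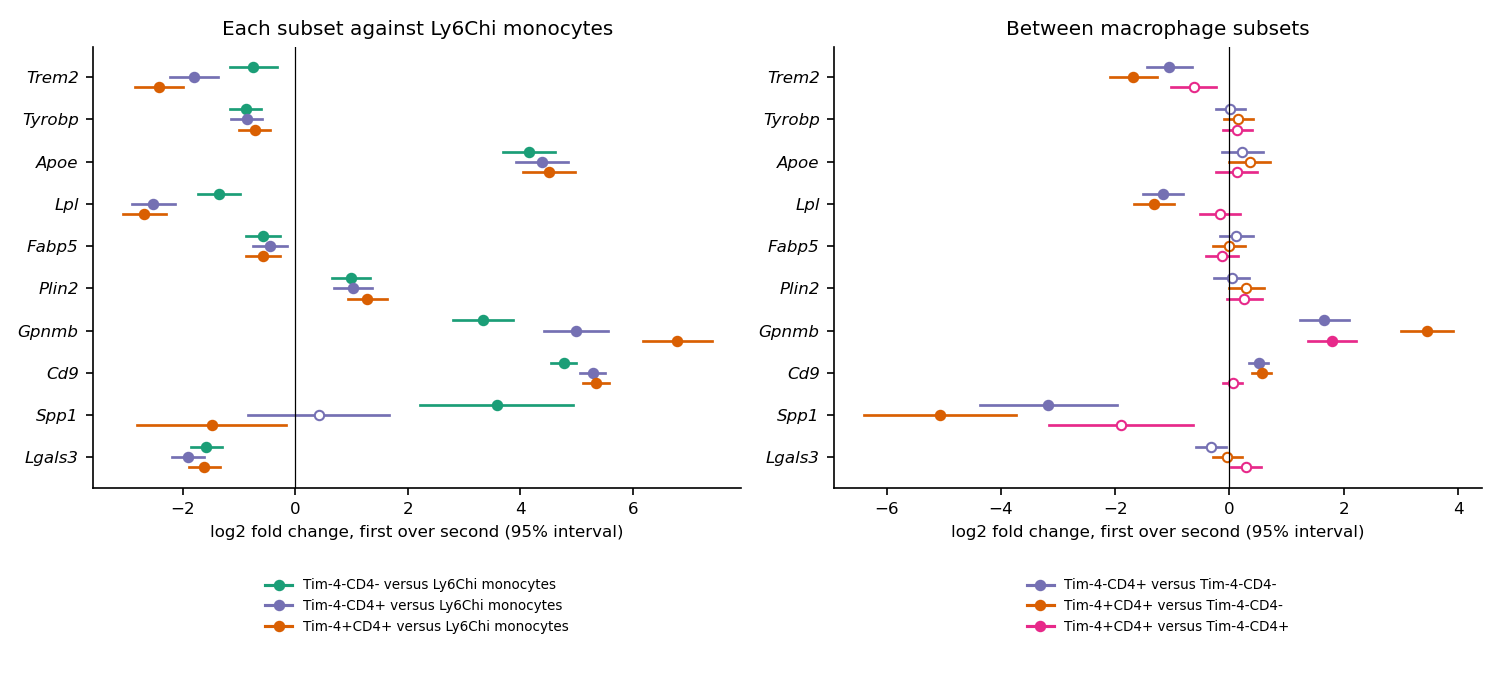
Log2 fold changes of the 10 genes with 95% intervals, against Ly6Chi monocytes on the left and between macrophage subsets on the right, with filled points where the adjusted p was under 0.05. *Apoe* is far to the right on the left side, at 4.15 to 4.51, and near 0 on the right side, whereas *Gpnmb* is to the right on both.

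The fall of *Trem2*, *Lpl*, and *Spp1* went with a fall of monocyte markers and of some dendritic cell markers. *Ly6c2*, *Ccr2*, and *Plac8* summed to 552.1 to 825.7 CPM in Tim-4-CD4-, 74.3 to 128.3 CPM in Tim-4-CD4+, and 12.02 to 23.9 CPM in Tim-4+CD4+ macrophages, against 4368 to 6600 CPM in monocytes. In Tim-4-CD4- macrophages the sum was mostly *Ccr2*, at 660 CPM, with *Ly6c2* at 1.72 CPM. *Spp1* was higher in these macrophages than in monocytes, unlike *Trem2* and *Lpl*. The 5 dendritic cell markers (*Flt3*, *Itgae*, *Zbtb46*, *Xcr1*, and *Clec9a*) summed to 39.8 to 75.5 CPM, 28.8 to 37 CPM, and 28.5 to 43.2 CPM in the 3 subsets. *Flt3* averaged 8.65, 0.83, and 0.57 CPM and *Itgae* 9.61, 2.91, and 2.20 CPM, and both were called lower in Tim-4+CD4+ than in Tim-4-CD4- macrophages (adjusted p = 1.19e-05 and 0.00704), whereas the other 3 did not pass, *Clec9a* at 29.2 and 27.4 CPM among them. The part of these cells or transcripts in the falls was not tested. The rise of *Gpnmb* and *Cd9* went with that of 4 endothelial markers, from 108.1 to 123.2 CPM in Tim-4-CD4- to 286.8 to 346.8 CPM in Tim-4+CD4+ macrophages, nearly all of it *Pecam1*, which macrophages also express, with *Cdh5* at 4.58 and 5.25 CPM. The 6 mesenchymal markers summed to 60.8 to 92.2 CPM and 100.8 to 139.3 CPM in the same subsets, and their part in the differences was not tested.

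Other genes reported for lipid-associated macrophages or disease-associated microglia were called in both directions. Of 21 listed, 20 were tested, and 7 were called higher and 6 lower in Tim-4+CD4+ macrophages than in the Tim-4-CD4- subset, beside 11.3% and 11.9% of all genes, with a median log2 fold change of 0.07 against 0. The 7 that rose were *Cd63*, the growth factor gene *Igf1*, the integrin gene *Itgax*, and the lysosomal protease genes *Ctsb*, *Ctsd*, *Ctsl*, and *Ctsz*. Those that fell were *Mmp12*, *Capg*, *Lgals1*, *Ccl6*, *Csf1*, and *Clec7a*. *Mmp12*, the macrophage elastase gene, fell from 25.6 to 5.22 CPM (-2.28 ± 0.22 SE, adjusted p = 1.03e-06), and *Capg*, an actin-capping gene, from 16.9 to 3.44 CPM (-2.28 ± 0.24, adjusted p = 2.54e-06). Of 6 genes that disease-associated microglia are known to lose, 2 were called higher and 2 lower in the same comparison, with its 11.3% and 11.9% of all genes, and the median was 0.13. *Csf1r*, the receptor gene of the macrophage growth factor, rose from 4274 to 6677 CPM (0.64 ± 0.07, adjusted p = 3.67e-06), and *P2ry13* rose from 157.7 to 253.2 CPM (adjusted p = 0.00561). *Selplg* fell from 170.4 to 108 CPM (adjusted p = 0.000223), and *Tmem119*, the other gene called lower, from 21.1 to 13.6 CPM.

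**Figure D4:**
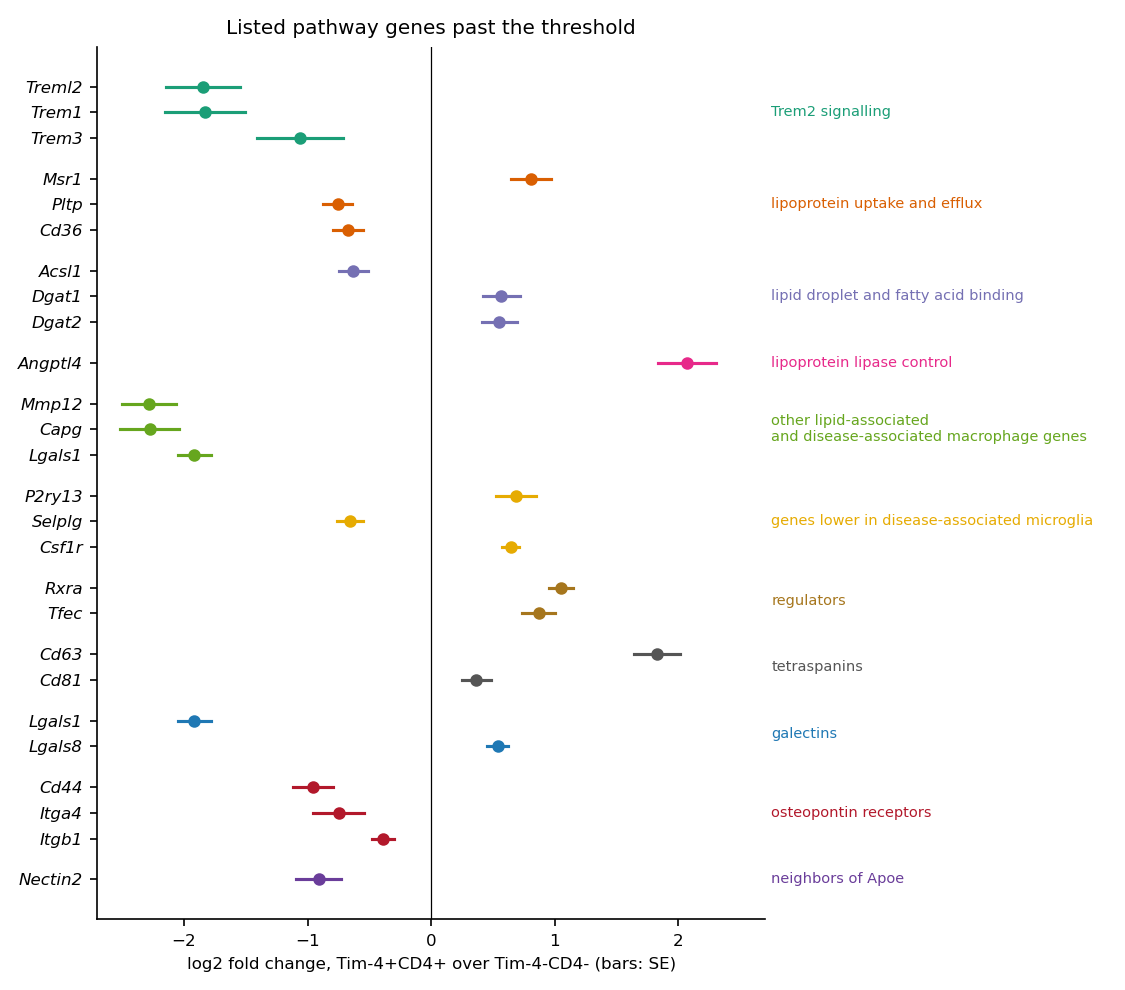
Log2 fold changes from the Tim-4-CD4- to the Tim-4+CD4+ subset, with bars of 1 SE, of the listed pathway genes that passed the test and averaged at least 1 CPM, up to 3 from each list. Points to the right of 0 were higher in Tim-4+CD4+ macrophages, among them *Angptl4* at 2.07 and *Cd63* at 1.83, and *Mmp12* and *Capg* lie furthest to the left at -2.28.

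Levels can be compared between genes only per length, for which CPM was divided by the kilobases of the longest protein-coding transcript. In Tim-4+CD4+ macrophages, *Apoe* stood first of 19421 genes on this scale, at a mean of 22820, followed among the members by *Tyrobp* at 1112, *Plin2* at 339.6, *Cd9* at 187.1, *Lgals3* at 158.4, and *Gpnmb* at 53.2. *Fabp5* at 12, *Trem2* at 7.11, *Lpl* at 5.94, and *Spp1* at 0.0987 came last. In Tim-4-CD4- macrophages, the order was the same down to *Plin2*, but *Lgals3* at 162.4 was above *Cd9* at 126.5, and *Trem2* at 22.9, *Lpl* at 14.9, and *Fabp5* at 12.1 were above *Gpnmb* at 4.85. In monocytes *Tyrobp* led at 1837, before *Apoe* at 1004 and *Lgals3* at 487.5, and *Trem2* and *Lpl* were nearly equal at 38.5 and 38.3.

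Across the 12 macrophage libraries, the members fell into the groups already seen between subsets. On log2 CPM, *Trem2* and *Lpl* had a Pearson r of 0.94, *Trem2* and *Spp1* of 0.89, *Gpnmb* and *Cd9* of 0.86, and *Trem2* and *Gpnmb* of -0.93, values that the differences between the 3 subsets set in large part. After removal of the subset means, r was 0.78 for *Trem2* and *Lpl*, but 0.19 for *Trem2* and *Spp1*, 0.08 for *Gpnmb* and *Cd9*, and -0.37 for *Trem2* and *Gpnmb*. Within subsets, *Apoe* instead varied with *Lgals3* (r = 0.83), *Fabp5* (0.72), and *Plin2* (0.66), and *Trem2* with *Tyrobp* (0.79), a pair at -0.02 without that removal. Single libraries were at the top of their subset in both genes of such pairs. Tim-4+CD4+ replicate 1 was highest in *Trem2* and *Tyrobp*, at 11.1 and 840 CPM. Tim-4-CD4+ replicate 3 was highest in *Apoe*, *Lgals3*, *Fabp5*, and *Plin2*. No r was computed without these libraries. Libraries of 1 sort share cells and handling, which these values do not separate.

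The genes most like each called member over the same 12 libraries were taken from 11780 genes with a mean of at least 1 CPM. Subset means were not removed here, so these r values include the differences between subsets. *Trem2* was followed most closely by *Mmp12* (r = 0.971), *Smim14* (0.97), and *Ramp1* (0.969), and *Lpl* by *Ramp1* (0.969), *Gpr84* (0.963), and *Bst1* (0.955). Those most like *Gpnmb* were *Spats2* (0.996), *Slc1a3* (0.992), and *H2-M2* (0.991). *Kynu* (0.984), *Ganc* (0.983), and *Ptgs1* (0.983) came closest to *Cd9*, and *Tnfrsf12a* (0.953), *S100a10* (0.947), and *Ifnar2* (0.946) to *Spp1*. *Ramp1* was the one gene named for more than 1 member.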

How the data were processed

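RNA from FACS-sorted cells was made into strand-specific mRNA libraries and read from both ends. The authors used Trimmomatic 0.36 for trimming and STAR 2.4.2 for alignment (GRCm38.p4), kept uniquely mapped reads, and deposited raw counts per gene from HTSeq 0.6.1p1 against GENCODE vM11. Unique mapping can lose reads shared with near-identical copies, of which *Cd9* has 1 annotated by name, and copies under other names were not searched. The 15 deposited columns of normalized values were not used.

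Groups came from the sample titles. Symbols were matched to 19421 of 19456 identifiers, and coordinates and lengths were taken from GENCODE M21 (GRCm38). Counts were filtered with filterByExpr, scaled with TMM, and fitted with edgeR 4.0.16 (quasi-likelihood, R 4.3.3) over the 15 libraries without a replicate block. The 6 pairwise comparisons were adjusted by Benjamini-Hochberg. SEs were derived from the log2 fold change and its F statistic. The members and lists were chosen with earlier results of these data known. Named genes were the 10 members, up to 3 genes of each pathway list past the threshold in Tim-4+CD4+ against Tim-4-CD4- macrophages with a mean of at least 1 CPM, the 3 genes most correlated with each member called between subsets, and marker and sorting genes; further list genes were named to complete a count. A marker of the Ly6Chi monocyte list is not reported here and was left out of its sums. Correlations used log2 CPM with a prior count of 2.

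The alternatives were DESeq2 1.42.0, relative log expression and upper-quartile scaling, no filter beyond 1 count, a filter at a mean of 1 CPM, fits of only the 2 populations compared, replicate blocks by the numbers of titles or descriptions, counts thinned to the smallest library, and leaving out each library in turn. No libraries agreed within sampling noise. Figures used Python 3.11.15 and matplotlib 3.10.9.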

Additional observations from a re-analysis of the deposited data

Results flagged for a closer look

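In 30 groups of 4 libraries, 1 for each member in each subset, 4 groups had a library whose gap to its nearest neighbor, as a share of the group's range, was above Dixon's 95% critical value, and chance flags about 1 in 20 such groups. *Tyrobp* was at 840 CPM in Tim-4+CD4+ replicate 1 and at 550.3 to 559.3 CPM in the other 3 libraries. *Fabp5* was at 15.3 CPM in Tim-4-CD4+ replicate 3, beside 12.04 to 12.3 CPM. *Plin2* was at 697 CPM in Tim-4-CD4- replicate 2, beside 452 to 475.9 CPM, and at 653.6 CPM in Tim-4-CD4+ replicate 3, beside 493.9 to 500.1 CPM. Over all genes, these last 2 libraries had the highest correlation of deviations from the means of their subsets of any 2 libraries of different populations (r = 0.24), so their flags may not be independent of each other.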

How the results depend on the processing

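Of 1440 refitted fold changes of members, 1389 kept their direction and side of the threshold, 16 lost and 11 gained a call, and 24 turned sign, none of them for a called difference. The number of members called was within 1.5 times that given above in each comparison and alternative, except from the Tim-4-CD4+ to the Tim-4+CD4+ subset, where 1 became 3 with DESeq2 and ranged from 1 to 3 on leaving out a library, with 3 without Tim-4+CD4+ replicate 1. Depth limits *Spp1* most, at 1 to 30 counts in the Tim-4+CD4+ libraries. Same-numbered libraries of different subsets had r of -0.123 to 0.134 by title and -0.089 to 0.161 by description, with 2 and 4 of 12 pairs over 0.1. By description, all pairs of number 4 were over 0.1 (0.161, 0.128, and 0.138). Most pairs of the other numbers were not, so the numbers were not taken as pairs. Some libraries with other numbers had a higher r, up to 0.24, and several fell into sets. Tim-4-CD4- replicate 2 was at 0.24 with Tim-4-CD4+ replicate 3 and 0.184 with Tim-4+CD4+ replicate 3, which were at 0.134 with each other. Tim-4-CD4- replicate 3 was at 0.136 with Tim-4-CD4+ replicate 1 and 0.135 with Tim-4+CD4+ replicate 2, which were at 0.173. Tim-4-CD4- replicate 1 was at 0.219 with Tim-4-CD4+ replicate 4, but at 0.058 with Tim-4+CD4+ replicate 1. No label groups these sets as a whole. A sharing of mice or days between subsets, which the fits without a block would not account for, was not tested. With the replicate block by titles, 1 member was called from the Tim-4-CD4+ to the Tim-4+CD4+ subset, and with that by descriptions 2, of which *Trem2* was the added one (adjusted p = 0.0452), and *Lgals3* was added from the Tim-4-CD4- to the Tim-4-CD4+ subset (adjusted p = 0.0403). The signs that turned were of small differences. From the Tim-4-CD4- to the Tim-4+CD4+ subset, *Fabp5* was at 0.023 with a mean of at least 1 CPM, 0.017 with relative log expression, 0.044 with upper-quartile scaling, 0.007 with only the 2 populations, and 0.016 with DESeq2 on the log2 scale, and *Lgals3* was at 0.018 with upper-quartile scaling. On leaving out a library, the ranges were -0.008 to 0.045 for *Tyrobp* and -0.074 to 0.213 for *Plin2* from the Tim-4-CD4- to the Tim-4-CD4+ subset, -0.014 to 0.222 for *Tyrobp*, -0.046 to 0.067 for *Fabp5*, and -0.093 to 0.017 for *Lgals3* from the Tim-4-CD4- to the Tim-4+CD4+ subset, and -0.032 to 0.204 for *Tyrobp* from the Tim-4-CD4+ to the Tim-4+CD4+ subset. The cause was not tested.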
